A study of Homo sapiens with 60 samples.

Results

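The genes of cholesterol synthesis, uptake and SREBP2 control were followed in HepG2, a human hepatocellular carcinoma line, by RNA sequencing. A fixed list of symbols chose 27 genes of the 60675 in the table. No measured value entered that rule, but the list was drawn up with earlier results of these data known. All 27 had enough counts to be tested. They comprise 8 enzymes between acetyl-CoA and the farnesyl and geranylgeranyl diphosphates (ACAT2, HMGCS1, MVK, PMVK, MVD, IDI1, FDPS and GGPS1), 3 that make and cyclise squalene (FDFT1, SQLE and LSS) and 9 that turn lanosterol into cholesterol (CYP51A1, TM7SF2, LBR, MSMO1, NSDHL, HSD17B7, EBP, SC5D and DHCR7). A further 4 control the transcription factor SREBP2 (SREBF2, SCAP, INSIG1 and INSIG2), and 3 move sterol between membranes (STARD4, NPC1 and NPC2).

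Cells had been exposed for 24 h to a water extract of 1 of 6 medicinal herbs at 3 doses. The low, medium and high doses were 18, 90 and 450 µg/mL for Polygalae Radix. For Schisandrae Fructus, Aucklandiae Radix, Zizyphi Semen, Longan Arillus and Liriopis seu Ophiopogonis Tuber they were 20, 100 and 500 µg/mL. Wortmannin at 10 µM, an inhibitor of phosphoinositide 3-kinases, served as the positive control. The vehicle was DMSO, at 0.1% per the labels and at 2% per the series' design text, so its level is uncertain. Each of the 20 groups had 3 libraries of this 1 cell line, and the labels do not say whether they came from separate cultures, so that p-values measure only the spread between these libraries, which may be technical. The sample codes fall into 5 sets. The vehicle and wortmannin have 1 each, and the other sets hold Schisandrae with Liriopis, Zizyphi with Longan, and Polygalae with Aucklandiae. Every comparison with the vehicle crosses sets, while all doses of 1 extract share a set.

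Cholesterol is built in the cytosol and the endoplasmic reticulum from acetyl-CoA by way of mevalonate, farnesyl diphosphate, squalene and lanosterol. SREBP2 is held in the endoplasmic reticulum by SCAP and the INSIG proteins while sterol is plentiful. When sterol falls, SCAP escorts SREBP2 to the Golgi, where it is cleaved into a factor that enters the nucleus and turns on the genes of synthesis and uptake. Liver cells use the cholesterol for membranes, lipoproteins and bile acids.

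Total counts per library ranged from 20.21 M to 36.41 M (M, mega-counts; median 25.76 M). The hepatocyte markers ALB, APOA1, AFP, FGB, TF and AHSG were high in every library, from 216 CPM for the lowest of them upward (counts-per-million, CPM, after TMM scaling). PTPRC and CD3E, which mark leukocytes, were at 0 in all 60 libraries, and COL1A2, DCN, LUM and KDR had a median of 0 CPM. LYZ, which leukocytes also express, stood between 870.0 and 1647 CPM. Mitochondrial genes took, as group means, 11.8% to 16.6% of counts in the 19 treated groups and 17.7 ± 1.99% in vehicle libraries (SD, n = 3). In an earlier analysis of these data, 4 libraries, among them vehicle replicate 1, were set apart by the GC dependence of their counts. Their GC slopes were the lowest of the 60 libraries, from -1.603 to -0.715 log2 units per unit of GC share, with the next library at -0.591. An alternative fit left these 4 out. Several members overlap another gene (ACAT2 with TCP1, MVK with MMAB, GGPS1 with ARID4B, NPC2 with ISCA2) or an antisense RNA (FDPS, STARD4 and SREBF2), and FDPS, IDI1 and HSD17B7 have pseudogene copies, so part of their counts may be shared. Genes are counted as higher or lower where edgeR's quasi-likelihood test, fitted to all 60 libraries and Benjamini-Hochberg adjusted over 16517 genes, gave an adjusted p under 0.05. Log2 fold changes carry ± their standard error, and CPM values are given per library in the order of the replicate numbers. Where libraries are said not to overlap, the share of all genes without overlap was not computed. High-dose Liriopis, with 0 members called, had 3 members with all libraries above and 6 with all below the vehicle libraries.

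In high-dose Schisandrae cells expression was lower from the first to the last step of the pathway, with PMVK and GGPS1 as exceptions among the enzymes. Of the 27 genes, 19 were lower and 2 higher than in vehicle cells, against 7.26% and 8.39% of all tested genes, and the median log2 fold change over the 27 was -0.515. The losses covered 6 of the 8 genes up to the prenyl diphosphates, all 3 from squalene to lanosterol and all 9 from lanosterol to cholesterol, with STARD4 in addition. HMGCS1, which joins acetoacetyl-CoA and acetyl-CoA into hydroxymethylglutaryl-CoA, had 203, 197 and 191 CPM in high-dose Schisandrae cells, against 397, 364 and 352 CPM in vehicle cells. Each treated library was thus far under each vehicle library, and the log2 fold change was -0.91 ± 0.054 (adjusted p = 2.7e-18). SQLE, the squalene epoxidase, had 247, 239.9 and 229 CPM in high-dose Schisandrae cells and 375, 369 and 372 CPM in vehicle cells. Its log2 fold change was -0.64 ± 0.038 (adjusted p = 2.4e-18), and its vehicle libraries lay within a few CPM of each other. ACAT2, the cytosolic thiolase that makes acetoacetyl-CoA, had 118, 125 and 121 CPM in high-dose Schisandrae cells and 189.7, 184 and 182 CPM in vehicle cells (log2 fold change -0.61 ± 0.051, adjusted p = 4.7e-13).

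Further along the chain the falls were of like size. IDI1, which isomerises isopentenyl diphosphate, had 76.3, 81.2 and 73.0 CPM in high-dose Schisandrae cells, against 127, 118 and 115 CPM in vehicle cells (log2 fold change -0.65 ± 0.068). FDPS, the farnesyl diphosphate synthase, had 121, 135 and 134 CPM in high-dose Schisandrae cells and 169, 184 and 181 CPM in vehicle cells (log2 fold change -0.45 ± 0.058). LSS, the lanosterol synthase, had 217, 204 and 209 CPM in high-dose Schisandrae cells and 281, 323 and 329.6 CPM in vehicle cells (log2 fold change -0.57 ± 0.073). For these genes too the treated and vehicle libraries did not overlap. DHCR7, which reduces 7-dehydrocholesterol to cholesterol, had 223, 237 and 232 CPM in high-dose Schisandrae cells and 272, 288 and 297 CPM in vehicle cells, and its fall of 0.31 on the log2 scale was among the smaller ones. MSMO1, the C4 methylsterol monooxygenase, had 108, 111 and 107 CPM in high-dose Schisandrae cells and 160.5, 155 and 154 CPM in vehicle cells (log2 fold change -0.53 ± 0.067).

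STARD4, which carries cholesterol through the cytosol, had 47.4, 50.7 and 47.5 CPM in high-dose Schisandrae cells and 66.2, 56.5 and 55.0 CPM in vehicle cells (log2 fold change -0.29 ± 0.061, adjusted p = 0.00044). NPC2, which binds cholesterol inside the lysosome, had 43.3, 52.9 and 55.3 CPM in high-dose Schisandrae cells and 52.4, 56.2 and 55.0 CPM in vehicle cells, and its log2 fold change of -0.11 ± 0.11 did not pass the test.

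The other members that fell with high-dose Schisandrae are given by their log2 fold change alone. Those before squalene were the mevalonate kinase MVK (-0.60) and the mevalonate diphosphate decarboxylase MVD (-0.62), and the squalene synthase FDFT1 stood at -0.65. After lanosterol they were the C14 demethylase CYP51A1 (-0.49), the C14 sterol reductases TM7SF2 (-0.64) and LBR (-0.17), NSDHL (-0.42) and HSD17B7 (-0.51) of C4 demethylation, the sterol isomerase EBP (-0.53) and the desaturase SC5D (-0.57). LBR, which also anchors chromatin to the inner nuclear membrane, moved the least of the 9 genes after lanosterol. The 2 genes between acetyl-CoA and the prenyl diphosphates that did not pass the test were PMVK, the phosphomevalonate kinase (0.24 ± 0.16), and GGPS1, which makes geranylgeranyl diphosphate for protein prenylation (-0.11 ± 0.10).

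The doses of Schisandrae were then compared within their code set, without the vehicle. High-dose over low-dose Schisandrae gave 20 lower and 2 higher members, against 4.8% and 5.18% of all genes, and a median log2 fold change of -0.487. HMGCS1 averaged 197 ± 6.01 CPM in high-dose Schisandrae cells and 335 ± 21.3 CPM in low-dose Schisandrae cells (SD, n = 3 each), and SQLE 239 ± 8.90 CPM and 364 ± 22.4 CPM in the same order. Set against high-dose Liriopis, the other extract of that code set, high-dose Schisandrae again had 20 members lower and 2 higher, where 5.07% and 5.85% of all genes were called. The high-dose Schisandrae libraries are shared by these comparisons. The 5 leukocyte markers, mostly LYZ, summed to 1673 to 1705 CPM in high-dose Schisandrae libraries and 979 to 1020 CPM in vehicle libraries, with PTPRC and CD3E at 0 in both, and their part in the result was not tested. Leaving out each library in turn kept 18 of the 19 losses against the vehicle, and LBR lost its call without vehicle replicate 1 (log2 fold change -0.13).

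At lower doses few members passed the test. Medium-dose Schisandrae had HMGCS1 (-0.31 ± 0.053) and SQLE (-0.18 ± 0.037) lower and INSIG2 and NPC1 higher than vehicle cells, which is 4 members, against 2.98% of all genes called in either direction. Of these, HMGCS1 alone kept its call when each library was left out. At the low dose edgeR called 0 members, against 0.0727% of all genes, with 4 members at an unadjusted p under 0.05 and 1 called by DESeq2. HMGCS1 averaged 371 ± 23.6 CPM in the vehicle and 335 ± 21.3, 299.9 ± 9.22 and 197 ± 6.01 CPM at the low, medium and high dose (SD, n = 3 each).

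**Figure D1:**
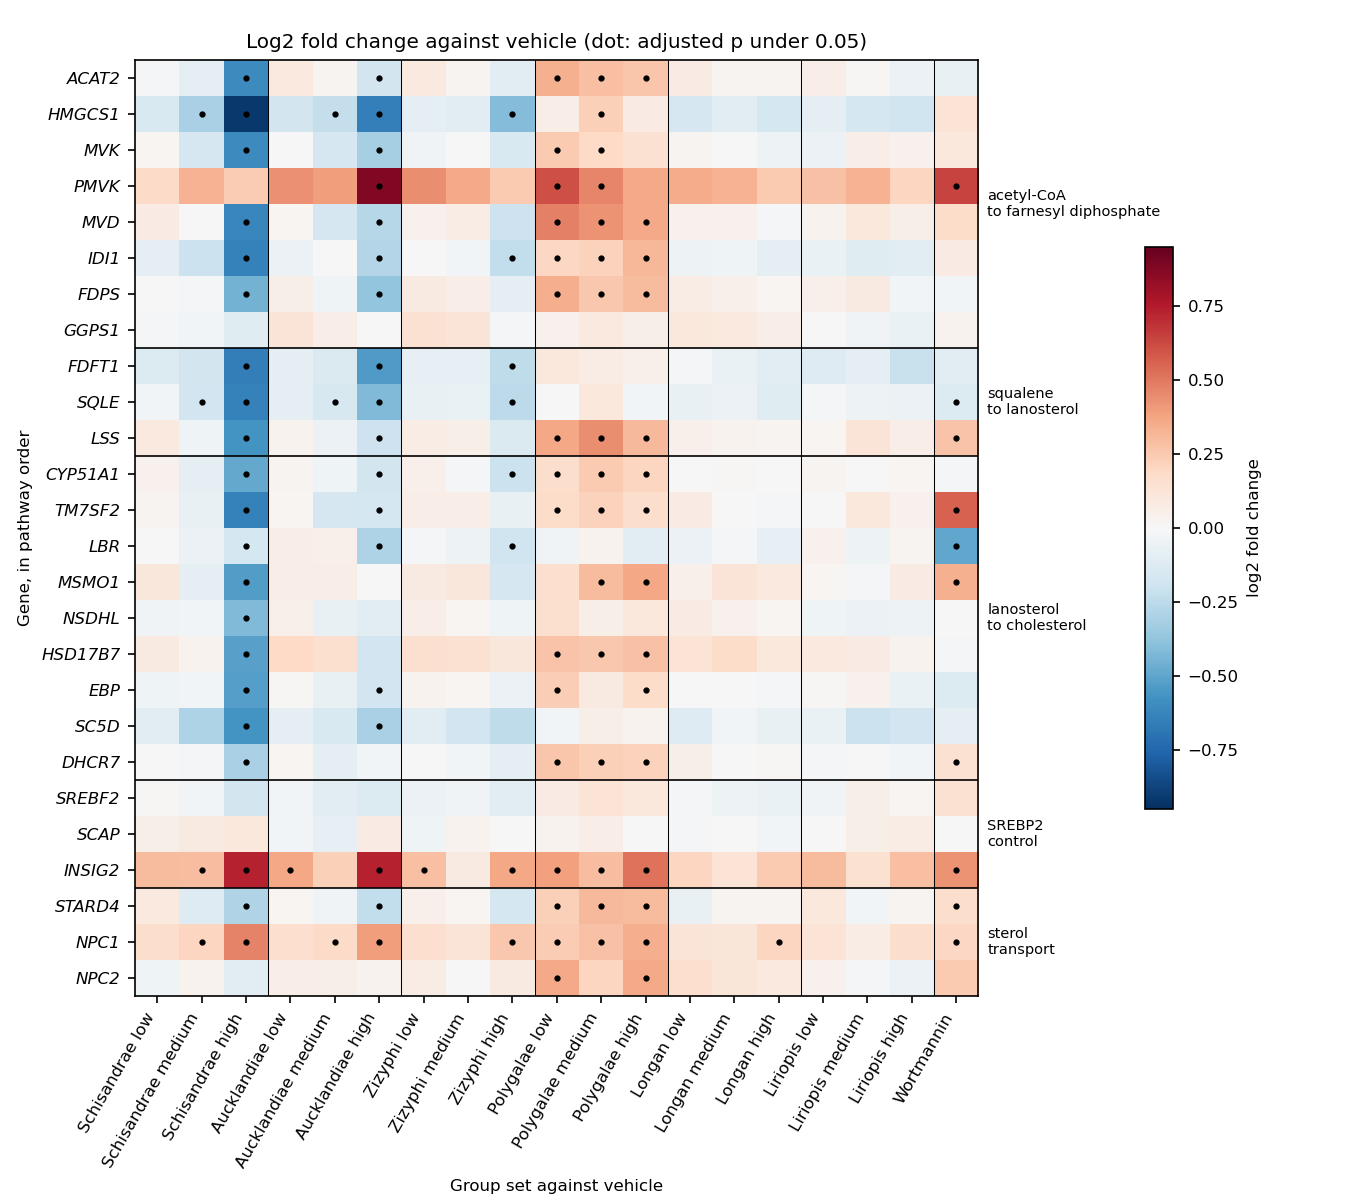
Log2 fold change against vehicle (colour) of 26 members (rows, in pathway order) in 19 groups (columns, low to high dose within each extract), with a dot where the adjusted p was under 0.05. INSIG1 is left out because its counts were near 0. The high-dose Schisandrae column is blue from ACAT2 to DHCR7 except at PMVK, the 3 Polygalae columns are mostly red, and the INSIG2 and NPC1 rows are red in every column.

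In high-dose Aucklandiae cells most genes of the front and the middle of the pathway fell, whereas several genes of its end did not pass the test. No difference between steps was tested. Of the 27 genes, 15 were lower and 3 higher than in vehicle cells, against 12.5% and 13.6% of all tested genes, with a median log2 fold change of -0.180. HMGCS1 had 244, 234 and 232 CPM in high-dose Aucklandiae cells, against 397, 364 and 352 CPM in vehicle cells (log2 fold change -0.65 ± 0.054, adjusted p = 1.3e-13). SQLE had 284, 272 and 280.3 CPM in high-dose Aucklandiae cells and 375, 369 and 372 CPM in vehicle cells (log2 fold change -0.42 ± 0.037, adjusted p = 2e-12). FDPS had 144, 136 and 131 CPM in high-dose Aucklandiae cells and 169, 184 and 181 CPM in vehicle cells (log2 fold change -0.37 ± 0.058, adjusted p = 1.7e-06). In all 3 genes every treated library lay under every vehicle library.

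FDFT1, at -0.54 ± 0.062, fell between HMGCS1 and SQLE in size, whereas several later enzymes hardly moved. DHCR7 had 288, 274 and 279.5 CPM in high-dose Aucklandiae cells and 272, 288 and 297 CPM in vehicle cells, so that the groups overlapped (log2 fold change -0.028 ± 0.040, adjusted p = 0.67). MSMO1 had 151, 159.7 and 162 CPM in high-dose Aucklandiae cells and 160.5, 155 and 154 CPM in vehicle cells, again with overlap (0.005 ± 0.066, adjusted p = 0.97). NSDHL (-0.10) and HSD17B7 (-0.18) did not pass the test either. The 5 members after lanosterol that fell were LBR (-0.29), SC5D (-0.31), EBP (-0.18), CYP51A1 (-0.17) and TM7SF2 (-0.16). LBR and SC5D fell by more than ACAT2 and LSS of the earlier steps, whose values follow. PMVK was higher, with 10.8, 10.8 and 13.2 CPM in high-dose Aucklandiae cells and 4.95, 6.83 and 7.34 CPM in vehicle cells (log2 fold change 0.88 ± 0.15, adjusted p = 1.8e-05).

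Other falls were those of IDI1, with 101, 101 and 94.8 CPM in high-dose Aucklandiae cells and 127, 118 and 115 CPM in vehicle cells (log2 fold change -0.28 ± 0.067), and ACAT2, with 166, 171 and 156 CPM and 189.7, 184 and 182 CPM in the same order (-0.17 ± 0.051). LSS had 273, 273 and 267 CPM in high-dose Aucklandiae cells and 281, 323 and 329.6 CPM in vehicle cells, a fall of 0.20 on the log2 scale. MVK (-0.31) and MVD (-0.27) fell as well. The cholesterol carrier STARD4 had 48.6, 52.5 and 50.5 CPM in high-dose Aucklandiae cells and 66.2, 56.5 and 55.0 CPM in vehicle cells (log2 fold change -0.23 ± 0.060). Many of these falls were close to the threshold. With each library left out in turn, 7 of the 15 kept their call (HMGCS1, MVK, IDI1, FDPS, FDFT1, SQLE and LBR), and 18 called members became 12 to 15, with 12 without high-dose Aucklandiae replicate 3.

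High over low dose of Aucklandiae gave 15 lower and 3 higher members, against 7.14% and 7.76% of all genes, and a median log2 fold change of -0.204. HMGCS1 averaged 236 ± 6.54 CPM in high-dose Aucklandiae cells and 329.5 ± 8.24 CPM in low-dose Aucklandiae cells (SD, n = 3 each; log2 fold change -0.48 ± 0.053). HSD17B7 joined the falls here (-0.37 ± 0.074), SC5D did not pass (-0.22 ± 0.10), and DHCR7 (-0.047 ± 0.040) and MSMO1 (-0.057 ± 0.066) stayed near 0. At the medium dose HMGCS1 (-0.23) and SQLE (-0.15) were lower and NPC1 (0.18) higher than in vehicle cells, where 5.52% of all genes were called. None of these 3 kept its call when each library was left out, and the fit without the 4 libraries of lowest GC slope called 0. At the low dose INSIG2 alone passed, where 4.45% of all genes did.

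The difference between these extracts was tested directly, as the high-over-low change of Schisandrae minus that of Aucklandiae. It was called negative for 11 members and positive for none, against 2.91% of all genes called lower. The largest gaps were in genes after lanosterol, MSMO1 at -0.57 ± 0.093 (adjusted p = 2.2e-05) and TM7SF2 at -0.49 ± 0.076 (adjusted p = 1.1e-05). CYP51A1 (-0.32), DHCR7 (-0.26) and EBP (-0.29) were also among them, as were LSS (-0.43), SQLE (-0.29), ACAT2 (-0.33), HMGCS1 (-0.29), IDI1 (-0.33) and MVK (-0.31). For FDPS (-0.023 ± 0.082) and FDFT1 (-0.068 ± 0.087) the difference did not pass the test, and LBR pointed the other way (0.19 ± 0.065, adjusted p = 0.088). The doses were matched at 500 and 20 µg/mL, but the extracts belong to different code sets.

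**Figure D2:**
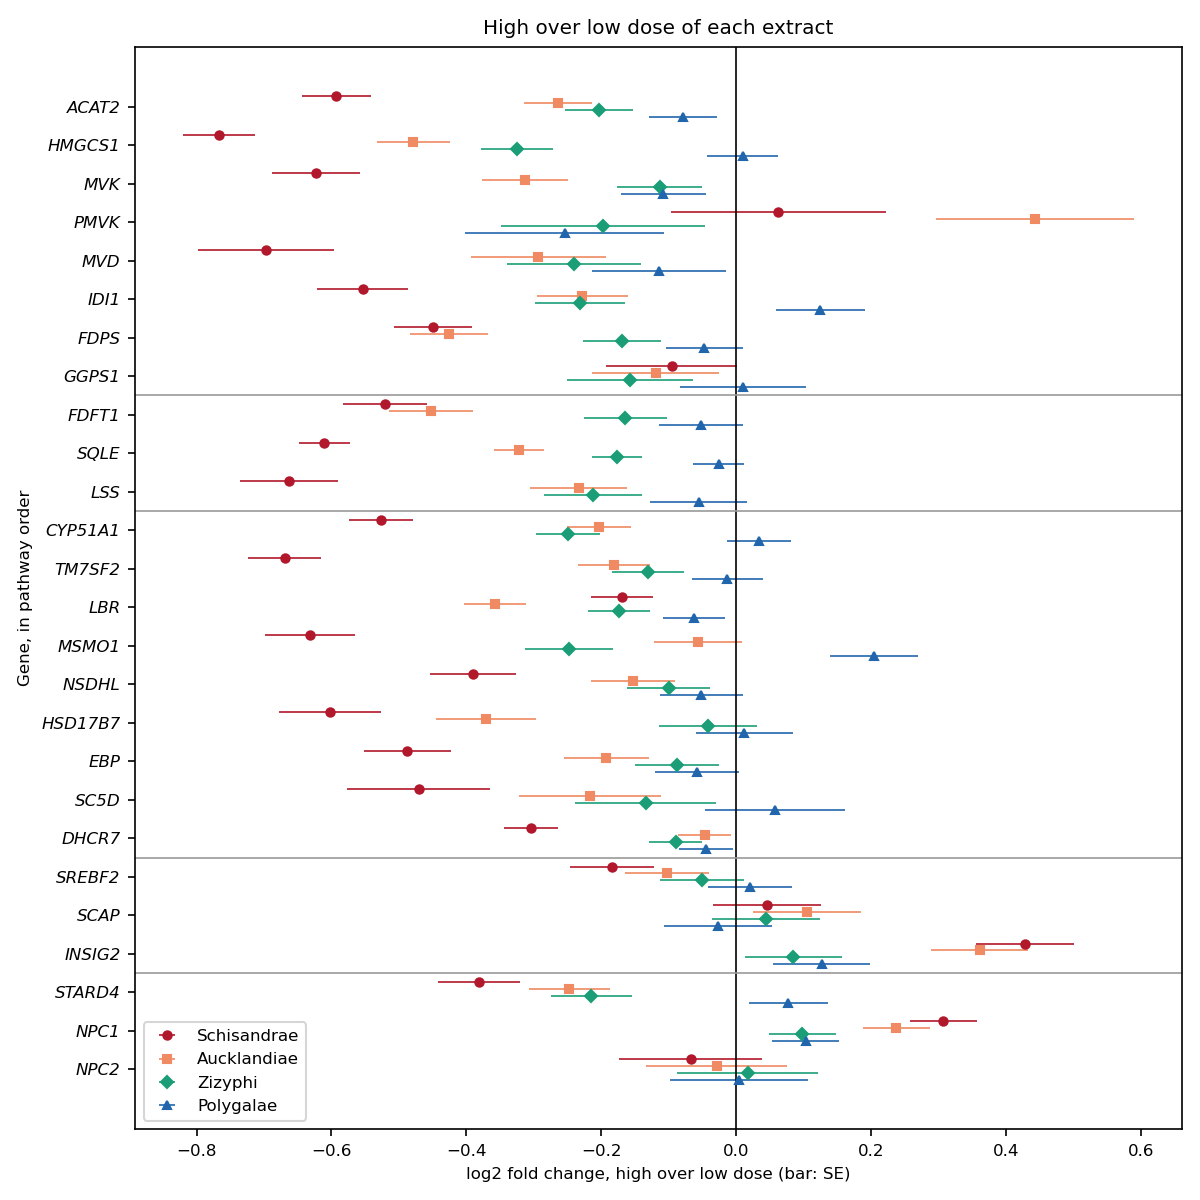
Log2 fold change of the high over the low dose (horizontal axis, bar: standard error) for 26 members in pathway order and 4 extracts. Schisandrae points lie left of 0 from ACAT2 to DHCR7 except at PMVK, Aucklandiae points approach 0 at MSMO1 and DHCR7, and INSIG2 and NPC1 lie to the right for both.

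High-dose Zizyphi moved fewer members and by less. Of the 27 genes, 6 were lower and 2 higher than in vehicle cells, against 1.86% and 2.55% of all tested genes, with a median of -0.108 on the log2 scale. HMGCS1 had 279, 292 and 264 CPM in high-dose Zizyphi cells, against 397, 364 and 352 CPM in vehicle cells (log2 fold change -0.41 ± 0.053, adjusted p = 1.5e-06). SQLE had 307, 315 and 316 CPM in high-dose Zizyphi cells and 375, 369 and 372 CPM in vehicle cells (log2 fold change -0.25 ± 0.037, adjusted p = 1.9e-05). IDI1 had 97.6, 113 and 96.1 CPM in high-dose Zizyphi cells and 127, 118 and 115 CPM in vehicle cells (log2 fold change -0.23 ± 0.067, adjusted p = 0.035). HMGCS1 and SQLE kept their call with each library left out, while IDI1, FDFT1 (-0.24), CYP51A1 (-0.20) and LBR (-0.19) each lost it without vehicle replicate 1, which left 4 members called, and 5 were called without high-dose Zizyphi replicate 3.

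The remaining synthesis genes did not pass the test, with log2 fold changes between -0.24 for SC5D and 0.25 for PMVK. FDPS had 167, 166 and 169 CPM in high-dose Zizyphi cells and 169, 184 and 181 CPM in vehicle cells (log2 fold change -0.084 ± 0.058, adjusted p = 0.47). LSS had 292, 262 and 292 CPM and DHCR7 265, 261 and 284 CPM in high-dose Zizyphi cells, and the log2 fold changes of -0.14 ± 0.072 and -0.083 ± 0.040 did not pass the test. STARD4 had 52.9, 53.4 and 52.4 CPM in high-dose Zizyphi cells and 66.2, 56.5 and 55.0 CPM in vehicle cells (-0.17 ± 0.060, adjusted p = 0.11). MSMO1 and ACAT2 had 134, 158 and 128 CPM and 167, 181 and 168 CPM in high-dose Zizyphi cells, at -0.16 ± 0.066 and -0.11 ± 0.051 on the log2 scale, and did not pass either.

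High over low dose of Zizyphi left 3 members lower and none higher, where 0.139% of all genes were called lower. They were HMGCS1 (-0.33 ± 0.053, adjusted p = 0.00037), CYP51A1 (-0.25 ± 0.048) and SQLE (-0.18 ± 0.037). HMGCS1 averaged 278 ± 13.7 CPM in high-dose Zizyphi cells and 349 ± 9.86 CPM in low-dose Zizyphi cells (SD, n = 3 each). A further 11 members had an unadjusted p under 0.05 in this comparison, so that 14 did in all, DESeq2 called 7 members, and a fit of these 6 libraries alone called 0. Set against high-dose Longan of the same code set, edgeR called 0 members, with 0.0363% of all genes called, 11 members at an unadjusted p under 0.05 and 2 called by DESeq2. The high-over-low change of Zizyphi minus that of Schisandrae was called positive for 13 members, against 1.48% of all genes. HSD17B7 (0.56 ± 0.11) and TM7SF2 (0.54 ± 0.076) were the largest in size. Against Aucklandiae the same difference passed for FDFT1 alone (0.29 ± 0.087), where 2.31% of all genes did, and 0 members passed without low-dose Zizyphi replicate 1 or 3, high-dose Zizyphi replicate 2 or 3, low-dose Aucklandiae replicate 1 or high-dose Aucklandiae replicate 2 or 3. At the medium dose 0 members were called by edgeR and 0 by DESeq2, with 2 at an unadjusted p under 0.05 and 0.702% of all genes called, and at the low dose INSIG2 alone was called, with 2.09% of all genes. That call was lost without any 1 of the vehicle libraries and without low-dose Zizyphi replicate 1 or 3.

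**Figure D3:**
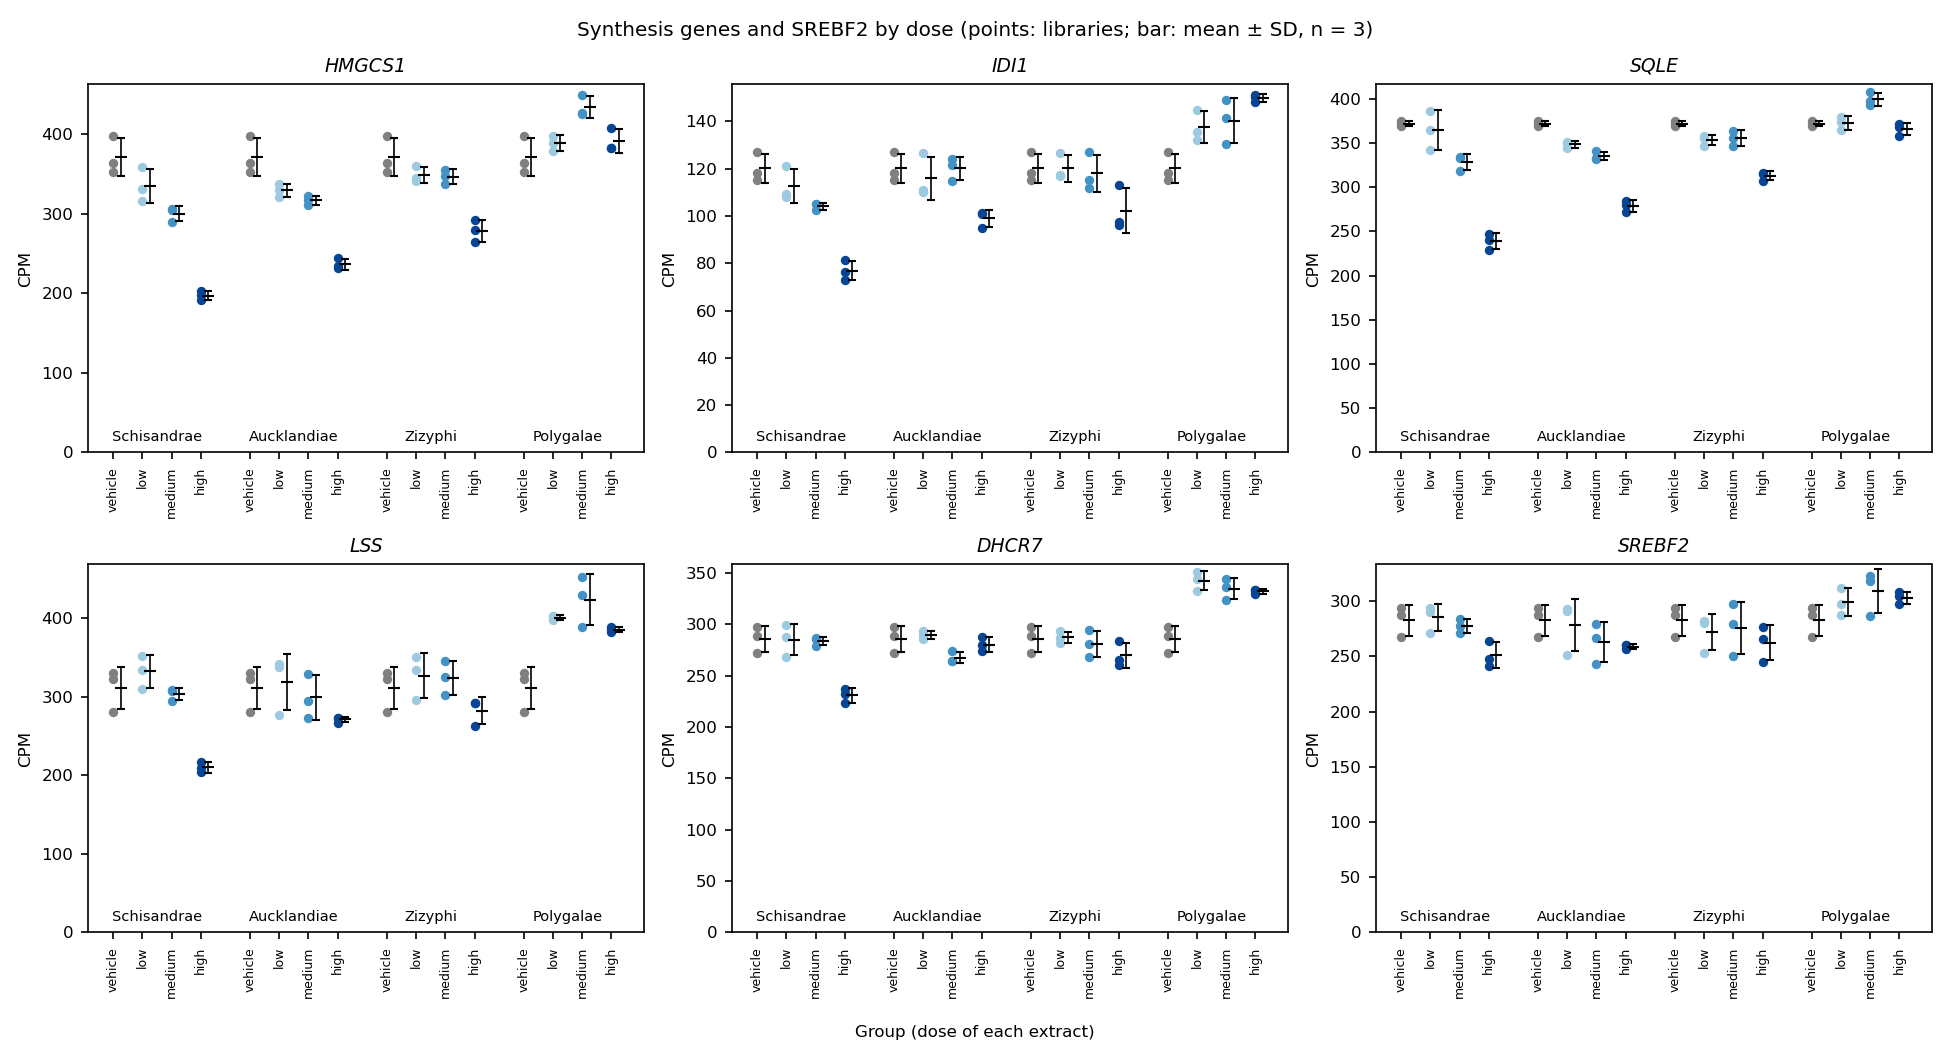
CPM of 6 members in each library (points) by dose of 4 extracts, with mean ± SD of 3 libraries (bars) and the same 3 vehicle libraries repeated as the lowest dose of each. HMGCS1 and SQLE are lower at the high than at the low dose of Schisandrae, Aucklandiae and Zizyphi, LSS and DHCR7 stand above the vehicle at every dose of Polygalae, and SREBF2 stays close to the vehicle.

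Polygalae cells stood apart in direction from Schisandrae, Aucklandiae and Zizyphi cells. Of the 27 genes, 15 were higher and 0 lower at the high dose than in vehicle cells, against 10.2% and 9.92% of all tested genes called higher and lower, with a median log2 fold change of 0.216. At the medium and low doses 16 members each were higher and 0 lower, against 5.92% and 8.64% of all genes. DHCR7 had 333, 329 and 333 CPM in high-dose Polygalae cells, against 272, 288 and 297 CPM in vehicle cells (log2 fold change 0.22 ± 0.040, adjusted p = 6.2e-05). MSMO1 had 196, 205 and 204 CPM in high-dose Polygalae cells and 160.5, 155 and 154 CPM in vehicle cells (log2 fold change 0.36 ± 0.066, adjusted p = 4.4e-05). FDPS had 220.1, 221 and 215 CPM in high-dose Polygalae cells and 169, 184 and 181 CPM in vehicle cells (log2 fold change 0.30 ± 0.057, adjusted p = 0.0001). None of the treated libraries overlapped the vehicle libraries in these genes.

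HMGCS1 and SQLE, which were lower with the high dose of the other 3 extracts, did not pass the test at the high or low dose of Polygalae. At the medium dose HMGCS1 was higher (0.22 ± 0.053, adjusted p = 0.0034) and SQLE did not pass (0.10 ± 0.037, adjusted p = 0.064). At the high dose HMGCS1 had 408, 382 and 382 CPM in high-dose Polygalae cells and 397, 364 and 352 CPM in vehicle cells, with overlap between the groups (log2 fold change 0.074 ± 0.053, adjusted p = 0.36). SQLE had 371, 358 and 368 CPM in high-dose Polygalae cells and 375, 369 and 372 CPM in vehicle cells (-0.024 ± 0.037, adjusted p = 0.72), and FDFT1 stood at 0.048 ± 0.062 (adjusted p = 0.64). LSS had 389, 385 and 382 CPM in high-dose Polygalae cells and 281, 323 and 329.6 CPM in vehicle cells (log2 fold change 0.31 ± 0.072). LSS libraries thus all lay above the vehicle libraries, while those of SQLE overlapped them. IDI1 had 148, 150.5 and 151 CPM in high-dose Polygalae cells and 127, 118 and 115 CPM in vehicle cells (0.32 ± 0.067). ACAT2 had 224, 215 and 226 CPM in high-dose Polygalae cells and 189.7, 184 and 182 CPM in vehicle cells (0.26 ± 0.051).

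All 3 transport genes rose with high-dose Polygalae. STARD4 had 72.5, 74.0 and 72.6 CPM in high-dose Polygalae cells and 66.2, 56.5 and 55.0 CPM in vehicle cells (log2 fold change 0.30 ± 0.059, adjusted p = 0.00018). NPC2, which hands cholesterol to NPC1 in the lysosome, had 69.5, 70.2 and 70.6 CPM in high-dose Polygalae cells and 52.4, 56.2 and 55.0 CPM in vehicle cells (0.36 ± 0.10, adjusted p = 0.0098). NPC1 was higher too, as given below with INSIG2. The other members that rose at the high dose were MVD (0.36), HSD17B7 (0.28), CYP51A1 (0.20), EBP (0.18) and TM7SF2 (0.16).

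No member passed the test between doses. High over low dose of Polygalae gave 0 called members by edgeR, where 3.93% of all genes were called, with 2 members at an unadjusted p under 0.05 and 1 called by DESeq2. DHCR7 averaged 286 ± 13.1 CPM in the vehicle and 342 ± 9.24, 335 ± 10.0 and 332 ± 2.41 CPM at 18, 90 and 450 µg/mL, and LSS averaged 311 ± 26.3 CPM in the vehicle and 401 ± 3.21, 423 ± 32.3 and 386 ± 3.34 CPM at these doses (SD, n = 3 each). The rises of Polygalae over the vehicle rest on a comparison across code sets, in which the set and the treatment cannot be told apart. Mitochondrial genes took 17.7 ± 1.99% of counts in vehicle libraries and 11.8 ± 2.20%, 12.5 ± 1.78% and 13 ± 0.996% in low-, medium- and high-dose Polygalae libraries, and the part of this gap in the rises was not tested. Without vehicle replicate 1 the count at the high dose was 10 of 27, with MVD, TM7SF2, HSD17B7, EBP and NPC2 no longer called. At the medium dose, 2 of the 16 (LSS and MSMO1) remained when only its 6 libraries were fitted, and at the low dose the count of 16 became 9 without low-dose Polygalae replicate 2 and 10 without vehicle replicate 1.

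Within the code set, high-dose Polygalae was set against high-dose Aucklandiae, at 450 and 500 µg/mL. Of the 27 genes, 21 were higher and 2 lower in Polygalae cells, against 7.54% and 9.01% of all genes. HMGCS1 averaged 391 ± 15.0 CPM in high-dose Polygalae cells and 236 ± 6.54 CPM in high-dose Aucklandiae cells (SD, n = 3 each; log2 fold change 0.72 ± 0.054), and FDPS 219 ± 3.01 CPM and 137 ± 6.78 CPM in the same order (0.67 ± 0.058). PMVK (-0.52) and INSIG2 (-0.21) were the 2 lower members, and each lost its call with 1 library left out, PMVK without high-dose Polygalae replicate 2 (-0.37) and INSIG2 without high-dose Aucklandiae replicate 1 (-0.17). Low-dose Aucklandiae cells, which shared the code set, averaged 289.7 ± 4.08 CPM of DHCR7 and 319 ± 36.04 CPM of LSS. INSIG2, their single called member, was higher than in vehicle cells, as it was in each Polygalae group. The part of the code set in these levels was not tested.

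The high-over-low change of Polygalae was also compared with that of each other extract, with doses of 450 and 18 µg/mL set beside 500 and 20 µg/mL. Minus Schisandrae, it was called positive for 18 members and negative for none, against 2.24% of all genes, with MSMO1 at 0.84 ± 0.093 and HMGCS1 at 0.78 ± 0.075. Minus Aucklandiae, it was called positive for 9 members and negative for PMVK (-0.70 ± 0.21), 10 in all against 6.82% of all genes, with HMGCS1 at 0.49 ± 0.075. Minus Zizyphi, it was called positive for MSMO1 (0.45 ± 0.093), HMGCS1 (0.33 ± 0.075), CYP51A1 (0.28 ± 0.067) and IDI1 (0.36 ± 0.094), against 0.418% of all genes. This count of 4 became 1 without high-dose Polygalae replicate 1 and 2 without high-dose Zizyphi replicate 3. The 3 differences share the Polygalae libraries.

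INSIG2 and NPC1 were higher with all 4 extracts, whichever way the synthesis genes went. INSIG2, which retains SCAP and SREBP2 in the endoplasmic reticulum, had 51.6, 51.4 and 50.9 CPM in high-dose Schisandrae cells, 54.1, 49.6 and 50.4 CPM in high-dose Aucklandiae cells, 39.3, 38.9 and 42.0 CPM in high-dose Zizyphi cells and 48.3, 41.4 and 43.1 CPM in high-dose Polygalae cells, against 32.9, 29.9 and 29.97 CPM in vehicle cells. All 12 treated libraries lay above all 3 vehicle libraries. The log2 fold changes over the vehicle were 0.73 ± 0.073 with Schisandrae, 0.73 ± 0.073 with Aucklandiae, 0.37 ± 0.074 with Zizyphi and 0.52 ± 0.073 with Polygalae (adjusted p = 1e-10, 5e-11, 0.0015 and 6.5e-07). NPC1, the membrane protein that exports cholesterol from lysosomes, had 164, 155 and 152 CPM in high-dose Schisandrae cells, 149.7, 147 and 149 CPM in high-dose Aucklandiae cells, 132, 131 and 142 CPM in high-dose Zizyphi cells and 148, 138 and 145 CPM in high-dose Polygalae cells, against 110.5, 111 and 117 CPM in vehicle cells. Here again no treated library reached down to the vehicle libraries, and the log2 fold changes were 0.47 ± 0.050, 0.39 ± 0.050, 0.26 ± 0.050 and 0.35 ± 0.050 in that order of extracts (adjusted p = 3e-10, 2.1e-08, 0.001 and 8.1e-07).

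The vehicle group had the lowest mean of all 20 groups for INSIG2, NPC1 and PMVK, and all 19 log2 fold changes over the vehicle were above 0 for each of them. The comparison of doses within a code set does not use the vehicle. At the high over the low dose INSIG2 rose by 0.43 ± 0.072 with Schisandrae and 0.36 ± 0.072 with Aucklandiae on the log2 scale (adjusted p = 1.9e-05 and 0.00018), and NPC1 by 0.31 ± 0.050 and 0.24 ± 0.050 (adjusted p = 8.8e-06 and 0.00038). With Zizyphi and Polygalae it did not pass for INSIG2 (0.084 ± 0.072 and 0.13 ± 0.071) or NPC1 (0.10 ± 0.049 and 0.10 ± 0.049). INSIG2 averaged 51.3 ± 0.358 CPM in high-dose and 38.1 ± 4.23 CPM in low-dose Schisandrae cells, and 51.4 ± 2.41 CPM in high-dose and 40.0 ± 1.83 CPM in low-dose Aucklandiae cells (SD, n = 3 each). High over low dose of PMVK passed for Aucklandiae alone among the 4 extracts (0.44 ± 0.15, adjusted p = 0.032), at 4.95 to 13.2 CPM over the 60 libraries, and lost its call without low-dose Aucklandiae replicate 1 or 2 or high-dose Aucklandiae replicate 3 (log2 fold change 0.32, 0.41 and 0.34). NPC1 shares its place in the genome with RMC1 on the other strand, and whether strand was used in the counting is not given in the sources used here.

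**Figure D4:**
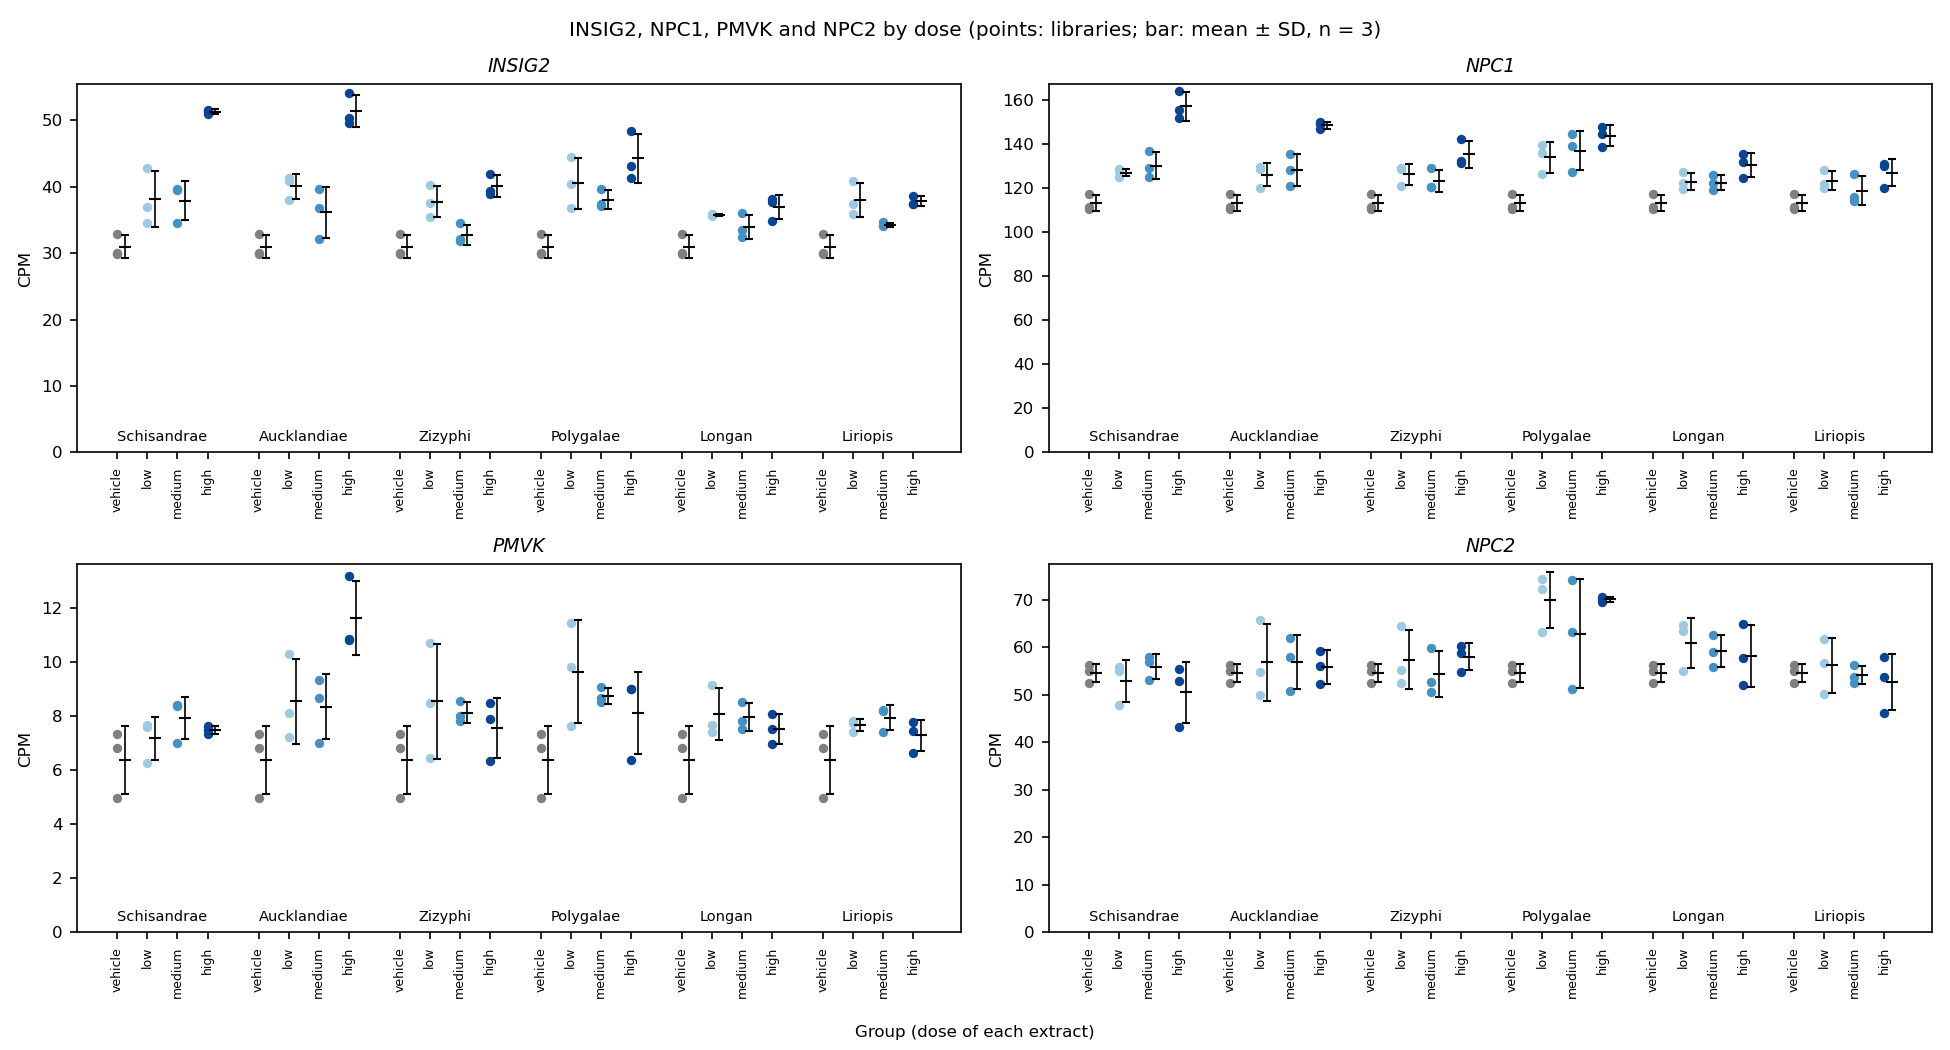
CPM of INSIG2, NPC1, PMVK and NPC2 in each library (points) by dose of the 6 extracts, with mean ± SD of 3 libraries (bars) and the same vehicle libraries repeated as the lowest dose of each. INSIG2 and NPC1 are lowest in the vehicle and highest at the high dose of Schisandrae and Aucklandiae, and PMVK is highest at the high dose of Aucklandiae.

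The genes for SREBP2 and its escort SCAP did not pass the test against the vehicle at the high dose of any of the 4 extracts. SREBF2, which encodes SREBP2, had 264, 241 and 248 CPM in high-dose Schisandrae cells, 260.2, 256 and 259.9 CPM in high-dose Aucklandiae cells, 266, 245 and 276 CPM in high-dose Zizyphi cells and 304, 308 and 297 CPM in high-dose Polygalae cells, against 267, 294 and 287 CPM in vehicle cells. SREBF2 had log2 fold changes of -0.17 ± 0.062, -0.13 ± 0.062, -0.11 ± 0.062 and 0.10 ± 0.062 in that order, although the high-dose Schisandrae and Aucklandiae libraries all lay under the vehicle libraries (adjusted p = 0.053 and 0.13). Against its own low dose, high-dose Schisandrae had SREBF2 lower by 0.18 on the log2 scale (adjusted p = 0.048), a call that was lost with the replicate number as a block (adjusted p = 0.051) and in 4 of the 6 fits without 1 library. Between high doses of 1 code set, SREBF2 was higher with Polygalae than with Aucklandiae (0.23 ± 0.062, adjusted p = 0.0063), a call kept under every alternative run. It was lower with Schisandrae than with Liriopis (-0.19 ± 0.062, adjusted p = 0.042), a call lost in 5 of the 6 fits without 1 library. SCAP ranged from 137 to 155 CPM over the 20 group means and was called in none of the comparisons with the vehicle. INSIG1 had 0 to 12 counts per library (0 to 0.479 CPM), so its fold changes say little, and whether these low values come from the cells or from the counting was not tested. It had 0.0444, 0.193 and 0.0934 CPM in high-dose Schisandrae cells and 0.0399, 0.330 and 0.384 CPM in vehicle cells, for example, and it passed the test in none of the comparisons with the vehicle.

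With wortmannin 8 members were higher and 2 lower than in vehicle cells, against 16.4% and 16.2% of all tested genes. That is 10 in all, where 32.6% of all genes were called in either direction, so the total is near the background. All 8 higher members were also higher at the medium dose of Polygalae, against the same vehicle libraries. PMVK was not called at the high dose of Polygalae, nor MSMO1 at its low dose. The share of all genes higher with both wortmannin and medium-dose Polygalae was not computed, so this overlap has no background. The 5 leukocyte markers, mostly LYZ, summed to 1473 to 1580 CPM in wortmannin libraries and 979 to 1020 CPM in vehicle libraries, with PTPRC and CD3E at 0 in both. The 5 fibroblast or stellate markers, mostly PDGFRB, summed to 19.8 to 22.9 CPM and 10.7 to 14.5 CPM in the same order. The part of these markers in the result was not tested. The C14 sterol reductases, which act on the same step, went in opposite directions. TM7SF2 had 121, 123 and 127 CPM in wortmannin cells and 77.4, 87.3 and 86.6 CPM in vehicle cells (log2 fold change 0.56 ± 0.053, adjusted p = 7e-12). LBR had 88.5, 88.2 and 90.7 CPM in wortmannin cells and 132, 122 and 122 CPM in vehicle cells (log2 fold change -0.49 ± 0.047, adjusted p = 6.8e-12). In both genes the groups were well apart, and wortmannin cells had the highest TM7SF2 mean and the lowest LBR mean of the 20 groups. TM7SF2 overlaps VPS51 on the same strand, so reads may be shared between them.

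The other members higher with wortmannin were PMVK (0.64), INSIG2 (0.42), MSMO1 (0.34), LSS (0.27), NPC1 (0.19), STARD4 (0.17) and DHCR7 (0.14), and SQLE was lower (-0.13). MSMO1 had 198, 196 and 199.7 CPM in wortmannin cells and 160.5, 155 and 154 CPM in vehicle cells, without overlap. LSS had 374, 376 and 374 CPM and DHCR7 317, 320.0 and 311 CPM in wortmannin cells, and each lost its call without vehicle replicate 1 (log2 fold change 0.20 and 0.11). STARD4 lost its call without vehicle replicate 2 or 3 or wortmannin replicate 1 (0.14, 0.11 and 0.15), and SQLE lost its call with no filter on low counts (adjusted p = 0.18). HMGCS1 had 409, 406 and 400.5 CPM in wortmannin cells and 397, 364 and 352 CPM in vehicle cells (0.13 ± 0.053, adjusted p = 0.062). SREBF2 had 314, 310.2 and 312 CPM in wortmannin cells, the highest mean of the 20 groups, at 0.14 ± 0.062 against the vehicle (adjusted p = 0.071). No low dose of wortmannin was measured, so a check within its code set could not be made.

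**Figure D5:**
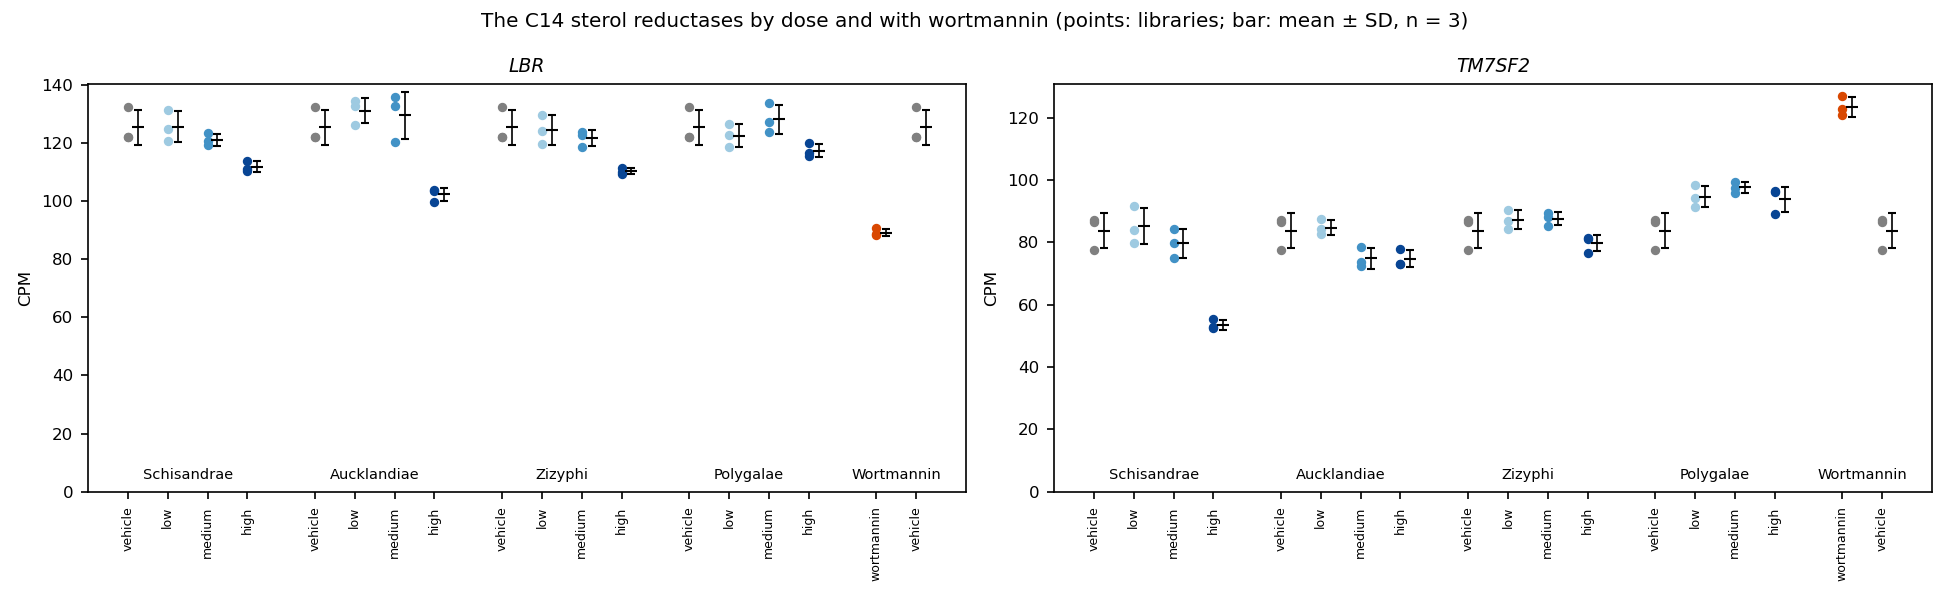
CPM of the C14 sterol reductases LBR and TM7SF2 in each library (points) by dose of 4 extracts and with wortmannin, with mean ± SD of 3 libraries (bars). Wortmannin libraries lie lowest for LBR and highest for TM7SF2, and high-dose Schisandrae libraries lie lowest for TM7SF2.

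With Longan and Liriopis hardly any member passed. High-dose Longan had NPC1 higher (0.21 ± 0.050, adjusted p = 0.021), where 1.78% of all genes were called, and that call was lost without vehicle replicate 1 or 2 and without high-dose Longan replicate 1 or 2 (log2 fold change 0.19, 0.20, 0.18 and 0.20). High-dose Liriopis had 0 members called by edgeR, where 0.0484% of all genes were, with 4 at an unadjusted p under 0.05 and 2 called by DESeq2. HMGCS1 had 333, 324 and 334 CPM in high-dose Longan cells and 319.8, 341 and 316 CPM in high-dose Liriopis cells, against 397, 364 and 352 CPM in vehicle cells. Its log2 fold changes of -0.17 ± 0.053 and -0.19 ± 0.053 did not pass (adjusted p = 0.087 and 0.15). At the medium and low doses of Longan edgeR called 0 members each, as did DESeq2, with 3 and 4 members at an unadjusted p under 0.05 and 0.0666% and 0.581% of all genes called. At those of Liriopis it called 0 each, with 2 members each at an unadjusted p under 0.05, 0 and 1 called by DESeq2, and 0.0303% and 0.0303% of all genes called. High over low dose called 0 members for Longan, with 0 at an unadjusted p under 0.05 and 0.00605% of all genes called, and 0 for Liriopis, with 3 at an unadjusted p under 0.05 and 0% of all genes called, and DESeq2 called 0 in both.

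Levels of the members differed widely between genes. Per kilobase of exon, and in vehicle cells, FDFT1 had 89.2, SQLE 86.4, HMGCS1 78.9 and DHCR7 68.7 CPM per kilobase, and PMVK 4.98 and GGPS1 5.27. The 3 transport genes were at 10.4 for STARD4, 11.2 for NPC1 and 19.9 for NPC2, SREBF2 was at 37.4 and INSIG2 at 7.83. Over the 20 groups, TM7SF2 had the largest ratio of the highest to the lowest group mean apart from INSIG1, at 2.30 (124 CPM in wortmannin and 53.6 CPM in high-dose Schisandrae cells). High-dose Schisandrae had the lowest of the 20 group means for 21 of the 27 members. These include GGPS1, NPC2 and SREBF2, which did not pass the test against the vehicle. The share of all tested genes with their lowest mean in that group was not computed, so the count has no background. The ratio of the highest to the lowest group mean was smallest for SCAP and GGPS1, at 1.13 and 1.20.

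Genes around the pathway were counted by the same test. Of 11 genes of SREBP1 and fatty acid synthesis, 10 fell with high-dose Schisandrae, 10 with high-dose Aucklandiae and 7 with high-dose Zizyphi, and 0 rose. Over all tested genes 7.26%, 12.5% and 1.86% fell in these comparisons. With high-dose Polygalae 2 rose and 0 fell, against 10.2% and 9.92% of all genes, and with wortmannin 1 rose and 3 fell, against 16.4% and 16.2%. ACSS2, the cytosolic acetyl-CoA synthetase, stood at -0.86 ± 0.038 with Schisandrae, -0.14 ± 0.037 with Aucklandiae, -0.18 ± 0.037 with Zizyphi, 0.34 ± 0.037 with Polygalae and 0.49 ± 0.037 with wortmannin on the log2 scale, all past the test. The desaturase FADS2 stood at -0.59 ± 0.043 with Schisandrae and -0.59 ± 0.043 with Aucklandiae, the elongase ELOVL6 at -0.38 ± 0.045 and -0.70 ± 0.045, and SREBF1, which encodes SREBP1, at -0.35 ± 0.065 and -0.52 ± 0.065. ELOVL6 was thus lower with Aucklandiae by more than with Schisandrae, while ACSS2 was the other way round, and these gaps were not tested.

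Of 18 accessory genes of sterol and prenyl metabolism, 3 fell and 1 rose with high-dose Schisandrae, 3 fell and 6 rose with Aucklandiae, 1 fell with Zizyphi, and 1 fell and 2 rose with Polygalae. Over all tested genes, 7.26% fell and 8.39% rose with Schisandrae, 12.5% and 13.6% with Aucklandiae, 1.86% and 2.55% with Zizyphi, and 9.92% and 10.2% with Polygalae, so that several of these counts are near the background. TMEM97, the sigma-2 receptor, which binds NPC1, stood at -0.78 ± 0.065 with Schisandrae, -0.53 ± 0.065 with Aucklandiae and -0.23 ± 0.065 with Zizyphi. ERG28, a scaffold of the C4 demethylation enzymes, stood at -0.79 ± 0.10 with Schisandrae. Of 9 genes of sterol efflux, esterification and LXR, of which 8 were tested, 1 rose and 1 fell with Schisandrae, 5 rose and 1 fell with Aucklandiae, 2 rose with Zizyphi, 2 rose and 1 fell with Polygalae and 4 rose with wortmannin. These counts are to be read against the same shares of all genes, and for wortmannin against the 16.4% that rose. For the extracts, 1 gene of 8 is near those shares. SOAT2, which esterifies cholesterol, was higher with all 4 extracts and wortmannin, by 0.40, 0.46, 0.31, 0.25 and 0.57 on the log2 scale for Schisandrae, Aucklandiae, Zizyphi, Polygalae and wortmannin.

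The promoters of the members that moved together were read from RefSeq (GRCh38.p14), which gave a window of 250 bases before to 50 after the start for 24 of the 27 genes, but not for ACAT2, FDFT1 and SQLE, and 7 of the 24 had more than 1 window. Motifs were searched on both strands in these windows. The box CCAAT, bound by NF-Y, a common partner of SREBPs, was in a window of 18 of the 24 members (75.0%) and of 39.7% of all 27305 genes with a window. The 6 without it were CYP51A1, INSIG2, LBR, NPC1, PMVK and SCAP. The GC box GGGCGG, bound by Sp1, was in 22 of 24 (91.7%), against 48.3% of all genes. The SREBP core TCACNCCAC was in SREBF2 alone (4.17%), against 1.39% of all genes. The motifs do not overlap in their letters, and a match is a description and no site.

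Of the 18 members with CCAAT, 14 fell and 0 rose with high-dose Schisandrae, and of the 6 without it, 2 fell (CYP51A1 and LBR) and 2 rose (INSIG2 and NPC1). Over all tested genes with a window, 9.61% of 4796 with CCAAT fell and 8.55% rose. Of the 6434 without it, 7.30% fell and 10.4% rose, and these shares are the background for the members' counts. With high-dose Aucklandiae 10 of 18 fell and 0 rose, and of the 6 without it 2 fell and 3 rose (INSIG2, NPC1 and PMVK). Of all genes with CCAAT 16.6% fell and 13.9% rose there, and of those without it 11.7% fell and 16.2% rose. The 150 bases before the start are printed for 4 genes, of which 3 fell with high-dose Schisandrae and SREBF2 carries the SREBP core, and for INSIG2 and NPC1, which rose. Capitals mark CCAAT, its reverse complement ATTGG, and the SREBP core.
HMGCS1 (chr5:43313413-43313562, minus strand): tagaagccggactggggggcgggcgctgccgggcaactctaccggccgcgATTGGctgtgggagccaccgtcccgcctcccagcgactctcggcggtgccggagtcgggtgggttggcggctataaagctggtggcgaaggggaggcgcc
FDPS (chr1:155308716-155308865, plus strand): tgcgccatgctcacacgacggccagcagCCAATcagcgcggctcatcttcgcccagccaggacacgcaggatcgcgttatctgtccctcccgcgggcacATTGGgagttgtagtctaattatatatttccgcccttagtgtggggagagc
MVD (chr16:88663092-88663241, minus strand): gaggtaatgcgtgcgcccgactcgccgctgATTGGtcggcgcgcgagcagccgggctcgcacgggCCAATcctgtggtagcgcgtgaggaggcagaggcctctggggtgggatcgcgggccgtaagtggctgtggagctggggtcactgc
SREBF2 (chr22:41832955-41833104, plus strand): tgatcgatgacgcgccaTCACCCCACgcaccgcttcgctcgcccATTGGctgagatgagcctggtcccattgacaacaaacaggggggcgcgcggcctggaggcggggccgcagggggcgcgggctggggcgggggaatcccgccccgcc
INSIG2 (chr2:118088321-118088470, plus strand): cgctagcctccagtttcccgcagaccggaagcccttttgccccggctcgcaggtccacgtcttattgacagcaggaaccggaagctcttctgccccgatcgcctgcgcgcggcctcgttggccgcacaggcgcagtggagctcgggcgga
NPC1 (chr18:23586507-23586656, minus strand): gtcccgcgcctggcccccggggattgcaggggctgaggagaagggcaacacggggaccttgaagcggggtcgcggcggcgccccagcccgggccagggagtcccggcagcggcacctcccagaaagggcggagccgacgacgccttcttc
The stretches of FDPS and MVD each hold CCAAT and ATTGG, and HMGCS1 holds ATTGG 100 bases before its start. In SREBF2 the core TCACCCCAC begins 133 bases before the start, with ATTGG at 106 bases. Neither INSIG2 nor NPC1 holds any of these letters in capitals, which says only that they are not in these windows.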

How the data were processed

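RNA of 60 HepG2 libraries in 20 groups of 3 was measured. The deposited table holds expected counts per gene for 60675 genes, of which 10.3% of values were not whole. Tools listed in the submitters' processing notes are RSEM 1.3.3, STAR 2.7.3a, FastQC 0.11.9 and Trim Galore 0.6.5, without roles or settings, and the labels describe a strand-specific kit. The strand setting of the counting is not given in the sources used here.

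Expected counts were rounded, scaled by TMM (factors 0.920 to 1.079) and fitted in 1 model over all 60 libraries with edgeR 4.0.16 in R 4.3.3 (quasi-likelihood test, filterByExpr, 16517 genes kept). Untested genes held 0.0533% of counts. The p-values were adjusted by Benjamini-Hochberg over all tested genes in each of 34 comparisons, with a threshold of 0.05. Levels are counts-per-million (CPM) with TMM factors. The median log2 fold change of all genes was within 0.0130 of 0 in each comparison. Intervals and tests rest on 20.21 M to 36.41 M counts per library.

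All 27 members are named. Values per library are given for 12 set members and for the 3 of smallest p in each main high-dose comparison, while those of PMVK, LBR and TM7SF2 were added after their values were seen. The members and lists were chosen with earlier results of these data known.

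Replicate numbers paired the libraries, by correlations over 0.1 of same-numbered deviations, in 3 comparisons: low-dose Liriopis against vehicle (0.56, 0.33 and 0.24), high over low dose of Schisandrae (0.43, 0.17 and 0.35) and of Zizyphi (0.37, 0.59 and 0.18). Alternatives were RLE size factors, no filter, a stricter filter, a replicate block, DESeq2 1.42.0, a fit of only the libraries compared, and leaving out each library. A further one left out the 4 libraries of lowest GC slope, a set taken from an earlier analysis. A replicate block within code sets was added after the data were seen.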

Additional observations from a re-analysis of the deposited data

Results flagged for a closer look

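The high-over-low change was compared between extracts by a test of the difference itself, in all 6 pairs of the 4 extracts. Polygalae minus Schisandrae differed for 18 members, Zizyphi minus Schisandrae for 13 and Schisandrae minus Aucklandiae for 11. Of all genes, 5.84%, 2.69% and 5.15% were called in these comparisons, in that order. Polygalae minus Aucklandiae differed for 10 members, Polygalae minus Zizyphi for 4 and Zizyphi minus Aucklandiae for 1, where 6.82%, 1.73% and 4.49% of all genes did. The 1 member of Zizyphi minus Aucklandiae does not exceed that share and was lost in several fits without 1 library. The pairs share libraries, and each pair other than Polygalae with Aucklandiae crosses code sets.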

How the results depend on the processing

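No member reversed its direction where it was called, under any alternative run. The counts of called members against the vehicle at the high doses of Schisandrae, Aucklandiae and Polygalae and with wortmannin stayed within 1.5 times of 21, 18, 15 and 10 under every alternative. Without the 4 libraries of lowest GC slope they were 22, 17, 10 and 10, and the 16 of medium-dose Polygalae became 13. Where a count moved by more, the cause was not tested. With only the libraries compared, it was 5 for high-dose Zizyphi (8 in the fit of all libraries), 0 for high-dose Longan (1), 2 for medium-dose Schisandrae (4), 0 for medium-dose (3) and low-dose (1) Aucklandiae, 0 for low-dose Zizyphi (1), 2 for medium-dose Polygalae (16), 0 for Zizyphi high over low (3), 1 for Polygalae high over low (0), 8 for Zizyphi minus Schisandrae (13), 0 for Zizyphi minus Aucklandiae (1), 7 for Schisandrae minus Aucklandiae (11) and 2 for Polygalae minus Zizyphi (4). With DESeq2 it was 4 for high-dose Longan, 2 for high-dose Liriopis, 1 for low-dose Schisandrae, 5 for medium-dose and 3 for low-dose Aucklandiae, 2 for low-dose Zizyphi, 1 for low-dose Liriopis, 7 for Zizyphi high over low, 1 for Polygalae high over low, 2 for Zizyphi over Longan and 3 for Zizyphi minus Aucklandiae. With no filter it was 2 for high-dose Liriopis, 1 for low-dose Schisandrae, 2 for low-dose Aucklandiae, 2 for low-dose Zizyphi, 1 for low-dose Liriopis, 5 for Zizyphi high over low, 2 for Zizyphi over Longan and 7 for Schisandrae minus Aucklandiae. With the stricter filter it was 2 for low-dose Aucklandiae and 3 for Zizyphi minus Aucklandiae. Without the 4 libraries it was 5 for high-dose Zizyphi, 0 for medium-dose Aucklandiae, 10 for low-dose Polygalae, 6 for Zizyphi high over low, 2 for Zizyphi over Longan and 3 for Zizyphi minus Aucklandiae. With the replicate block it was 2 for low-dose Aucklandiae and 1 for Zizyphi over Longan, where the numbers do not pair the libraries, and in the 3 paired comparisons it changed the call of SREBF2 for Schisandrae high over low alone (21 members against 22). With the block within code sets, added after the data were seen, it was 3 for high-dose Longan, 3 for low-dose Aucklandiae, 2 for low-dose Zizyphi, 1 for Polygalae high over low, 1 for Zizyphi over Longan and 3 for Zizyphi minus Aucklandiae.

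Leaving out each library in turn gave 4 to 9 members for high-dose Zizyphi, 0 to 1 for high-dose Longan, 2 to 4 for medium-dose Schisandrae, 1 to 5 for medium-dose and 1 to 2 for low-dose Aucklandiae, 0 to 2 for low-dose Zizyphi and 9 to 15 for low-dose Polygalae. It gave 2 to 6 for Zizyphi high over low, 0 to 1 for Zizyphi over Longan, 0 to 4 for Zizyphi minus Aucklandiae and 1 to 4 for Polygalae minus Zizyphi. Low-dose Aucklandiae had 2 without vehicle replicate 3 or its own replicate 1, and Zizyphi high over low 6 without high-dose Zizyphi replicate 2. INSIG1 had under 1 CPM in all libraries, which leaves its fold changes imprecise.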
